A study of Mus musculus with 26 samples.

Results

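The epithelial to mesenchymal transition genes described here are Cdh1, Cdh2, Epcam, Vim, Snai1, Snai2, Zeb1, Zeb2, Twist1 and Esrp1. They were taken as the rows of a gene count table whose symbol, ignoring case, was one of these names, and all 10 were found among 55391 gene rows. The table holds mRNA sequencing of 3 murine lung cancer lines, EA1, EA2 and EA3, whose genotype is EML4-ALK, a fusion that keeps the kinase Alk active. All 3 lines came from C57BL/6 mice, and EA2 was obtained from another institution. Cells were cultured in dishes with 100 nM alectinib, an inhibitor of ALK, or with 0.1% DMSO, the solvent control. Each line and treatment gave 1 library on each of days 1, 2, 3 and 5, and so 24 libraries fell into 6 groups of 4. The days are those of the sample titles and time labels, whereas the treatment protocol names days 1, 3, 5 and 7 and no day 2, a conflict that bears on every value given by day. The days served as the replicates of a group, and nothing in the labels gives a repeat within a day. With line and day as a block, p-values for alectinib rest on how its ratio to DMSO varied between days. Those for levels between lines, fitted without a block, rest on the spread between days. Those for slopes rest on the scatter about a trend over days.

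Epithelial cells hold together through E-cadherin at adherens junctions and can lose these contacts and become motile in the epithelial to mesenchymal transition. Transcription factors of the Snail, Zeb and Twist families drive the loss by repressing epithelial genes, and Zeb factors in particular bind E-box sequences in the promoters of their targets. Epithelial cells in turn keep splicing factors such as Esrp1 that mesenchymal cells lack, and lung cancer cells that move along this axis are known for an altered response to kinase inhibitors.

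Library totals of the 24 libraries ran from 5780062 to 11732401 counts, and levels are given in CPM, counts in 1000000 of the library total after TMM scaling. A count of 3, the smallest count read as detection, was worth between 0.249 and 0.519 CPM, which covers counting error only. The 2 further libraries were labelled EA3 day 7. Across 14264 genes, which are not independent replicates, they correlated with the EA2 libraries of their treatment at r = 0.947 to 0.980 in DMSO and 0.969 to 0.990 in alectinib, and with the EA3 libraries at 0.877 to 0.909 and 0.876 to 0.894. They held 7 and 0 counts of Epcam and 0 and 0 counts of Esrp1, 2 genes that every other EA3 library expressed, so they entered no result below unless named. As a check of the labelled cell type, the keratin Krt18 had group means of 486 to 1887 CPM and Krt8 of 48.8 to 2688 CPM, whereas the group means of Nkx2-1, Sftpc, Sftpa1 and Scgb1a1, which define alveolar and club cells, did not exceed 0.188 CPM. Of the other 6 lung epithelial markers looked at, Sftpb, Lamp3 and Hopx did not exceed 0.288 CPM, while Abca3 had group means of 5.99 to 125 CPM, Ager of 1.08 to 7.11 and Slc34a2 of 0 to 9.07.

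Since the repressors of this group bind the E-box CACCTG, windows of 250 bases before a gene start were read for it on both strands. The letters sought were CACCTG and its reverse complement CAGGTG. The set of RefSeq windows used (build GRCm38.p6) held 5 of the 10 genes. Cdh1, Cdh2, Snai2, Zeb1 and Esrp1 had no window in that set and were not read. Of the windows 3 are printed, those of Epcam and Twist1 because the lines differed in them in DMSO and that of Snai1 because it encodes such a repressor and fell in EA3. They lie on the plus strand at chr17:87635729-87635978 (Epcam), chr2:167537945-167538194 (Snai1) and chr12:33957421-33957670 (Twist1), each ending at the base before the start. Capitals mark the E-boxes.
Epcam: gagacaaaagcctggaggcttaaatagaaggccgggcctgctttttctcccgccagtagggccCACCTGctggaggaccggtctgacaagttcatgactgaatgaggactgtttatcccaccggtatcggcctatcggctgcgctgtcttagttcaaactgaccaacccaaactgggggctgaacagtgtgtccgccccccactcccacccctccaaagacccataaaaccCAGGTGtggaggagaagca
Snai1: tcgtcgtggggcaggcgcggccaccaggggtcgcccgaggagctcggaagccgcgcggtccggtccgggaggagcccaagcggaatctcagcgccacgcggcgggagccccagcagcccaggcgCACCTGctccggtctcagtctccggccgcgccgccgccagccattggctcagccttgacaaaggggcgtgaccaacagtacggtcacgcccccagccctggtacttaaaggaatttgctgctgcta
Twist1: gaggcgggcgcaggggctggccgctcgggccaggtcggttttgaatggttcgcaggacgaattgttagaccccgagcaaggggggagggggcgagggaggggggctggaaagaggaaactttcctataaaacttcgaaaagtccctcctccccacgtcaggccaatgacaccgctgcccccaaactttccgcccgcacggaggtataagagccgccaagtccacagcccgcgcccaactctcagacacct

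The Epcam window held 2 E-boxes, which start 187 and 19 bases before the gene start, and the Snai1 window held 1, which starts 126 bases before it. No such letters stood in the Twist1 window, in the Vim window or in the 4 windows of Zeb2, so that 2 of the 5 genes and 2 of the 8 windows held any. Of all 32851 windows of this length, 17.2% held at least 1 E-box and 2.06% at least 2.

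In DMSO EA3 alone combined Cdh1, Epcam and Esrp1, EA1 had Cdh1 with traces of Epcam and no Twist1, and EA2 had low Cdh1 with the highest Twist1. Past the threshold of an adjusted p under 0.05 (the quasi-likelihood test of edgeR, adjusted after Benjamini and Hochberg over 12886 genes; below, the same test over 14264 genes for alectinib and time and 13486 for levels in alectinib, except where DESeq2 is named) stood 4 of the 10 members, Cdh1, Epcam, Twist1 and Esrp1, where 39.7% of all tested genes passed. Between pairs of lines 2 members passed for EA2 against EA1, 3 for EA3 against EA1 and 4 for EA3 against EA2, beside 29.3%, 22.2% and 25.6% of all genes. With the day as a block, 7 of the 10 passed, the added ones being Cdh2 (adjusted p = 0.00326), Snai2 (0.00156) and Zeb2 (0.0008), against 0.161, 0.112 and 0.0659 without it, while the genes that passed rose from 5122 to 7167. Zeb2 also passed without day 3 (adjusted p = 0.0325), with library size alone (0.0468) and with DESeq2 (0.0383), and Snai2 passed without day 3 (0.0292), while Cdh2 passed without day 1 (0.00779). In alectinib 8 of the 10 differed between the lines, all but Snai1 and Zeb1, where 63.8% of all genes did. Zeb2 fell out of that count without day 2 (adjusted p = 0.0583) or day 3 (0.0531).

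**Figure D1:**
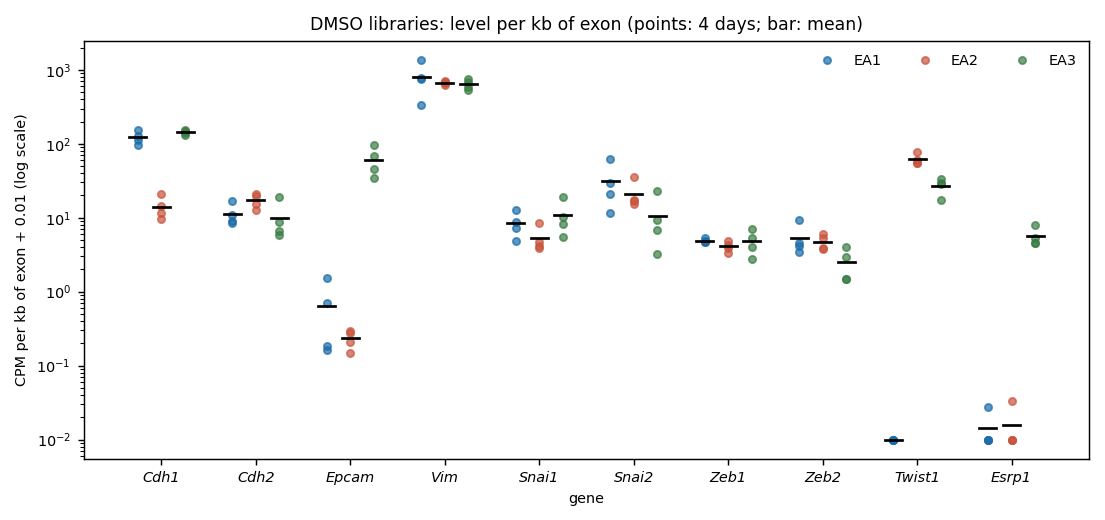
Level of each gene in the DMSO libraries of EA1, EA2 and EA3, in CPM per kb of exon plus 0.01 on a log axis, with a point per day and a bar at the mean of the 4 days. Cdh1 sits lower in EA2 than in the other lines, Epcam and Esrp1 are high in EA3 only, Twist1 is at 0 in EA1, and the 3 lines overlap for Vim, Snai1 and Zeb1.

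Per kb of exon, which allows levels to be compared between genes, Vim led in every group. Its DMSO mean was 805 ± 429 CPM per kb in EA1, 670 ± 36.7 in EA2 and 637 ± 97.5 in EA3 (SD, n = 4 each). The next gene was Cdh1 in EA1 and EA3, at 122 ± 24.4 and 143 ± 10.1 CPM per kb, and Twist1 in EA2, at 62.0 ± 10.7. In EA3 DMSO Epcam came next and lay above Twist1 without overlap, and in EA1 and EA2 Epcam and Esrp1 closed the order below Zeb1, with Twist1 at 0 in EA1. Between these, neighbours in the order mostly overlapped. Snai2, Cdh2, Snai1, Zeb2 and Zeb1 overlapped from neighbour to neighbour in EA1 DMSO, and in EA2 Cdh1 stood among Snai2 and Cdh2, whose libraries it overlapped, and above Snai1, whose libraries it did not. Exon lengths were the union of all annotated transcripts, which for Zeb2 reaches 19.9 kb, so its level per kb is low by construction.

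Cdh1 encodes E-cadherin, the adhesion molecule of epithelial adherens junctions, and lies on chromosome 8 at 106603351 to 106670246 of GRCm38. In EA1 its levels on days 1, 2, 3 and 5 were 440, 700, 587 and 509 CPM in DMSO and 780, 631, 567 and 670 CPM in alectinib. In EA2 they were 52.7, 44.1, 96.7 and 65.5 CPM in DMSO and 182, 144, 272 and 153 CPM in alectinib. EA3 had 679, 599, 705 and 641 CPM in DMSO and 1280, 1144, 644 and 1063 CPM in alectinib. The alectinib libraries of EA2 stood above all its DMSO libraries yet below every library of the other lines, and in EA1 and EA3 the groups overlapped, in EA3 through the day 3 library alone. In DMSO Cdh1 differed by -3.10 ± 0.26 log2 units between EA2 and EA1 (SE, adjusted p = 1.02e-06). With alectinib it rose 2.93-fold in EA2 (log2 fold change 1.55 ± 0.20, adjusted p = 0.000109) and 1.53-fold in EA3 (0.62 ± 0.20, 0.0297), and in EA1 the log2 fold change was 0.26 with a 95% interval of -0.17 to 0.68 (0.333). The EA2 rise held in all 12 alternatives. That in EA3 was lost without day 1 (0.0870), day 2 (0.159) or day 5 (0.104), and with the line fitted alone (0.0577).

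Cdh2 encodes N-cadherin, the cadherin of mesenchymal and neural cells, on chromosome 18, and it was the only member that rose with alectinib in all 3 lines. EA1 read 135, 88.8, 68.6 and 72.7 CPM in DMSO on days 1, 2, 3 and 5 and 205, 187, 155 and 148 CPM in alectinib. For EA2 the values were 168, 158, 102 and 124 CPM in DMSO against 551, 669, 682 and 953 CPM. EA3 went from 152, 70.9, 47.7 and 53.0 CPM to 341, 396, 229 and 214 CPM. No DMSO library of a line reached any of its alectinib libraries. The rise was 1.96-fold in EA1 (log2 fold change 0.97 ± 0.22, adjusted p = 0.00521), 5.17-fold in EA2 (2.37 ± 0.23, 1.62e-05) and 3.95-fold in EA3 (1.98 ± 0.23, 5.79e-05), and each call held in all 12 alternatives.

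Set against each other per kb, Cdh1 exceeded Cdh2 in every EA1 and EA3 library and fell below it in all but 1 EA2 library. The ratio of Cdh1 to Cdh2 spanned 5.72 to 15.1 over the DMSO libraries of EA1 and 5.94 to 7.99 over its alectinib libraries. In EA3 it spanned 7.87 to 26.1 and then 4.95 to 8.75. EA2 had 0.493 to 1.68 in DMSO and 0.282 to 0.704 in alectinib. Set against the DMSO library of the same day, the alectinib library had the lower ratio on 4 of 4 days in EA3 and on 3 of 4 in EA1 and EA2, with medians of 18.1 and 5.86, 13.1 and 6.57, and 0.742 and 0.481, although the ranges overlapped in each line. No test was run on the ratio.

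**Figure D2:**
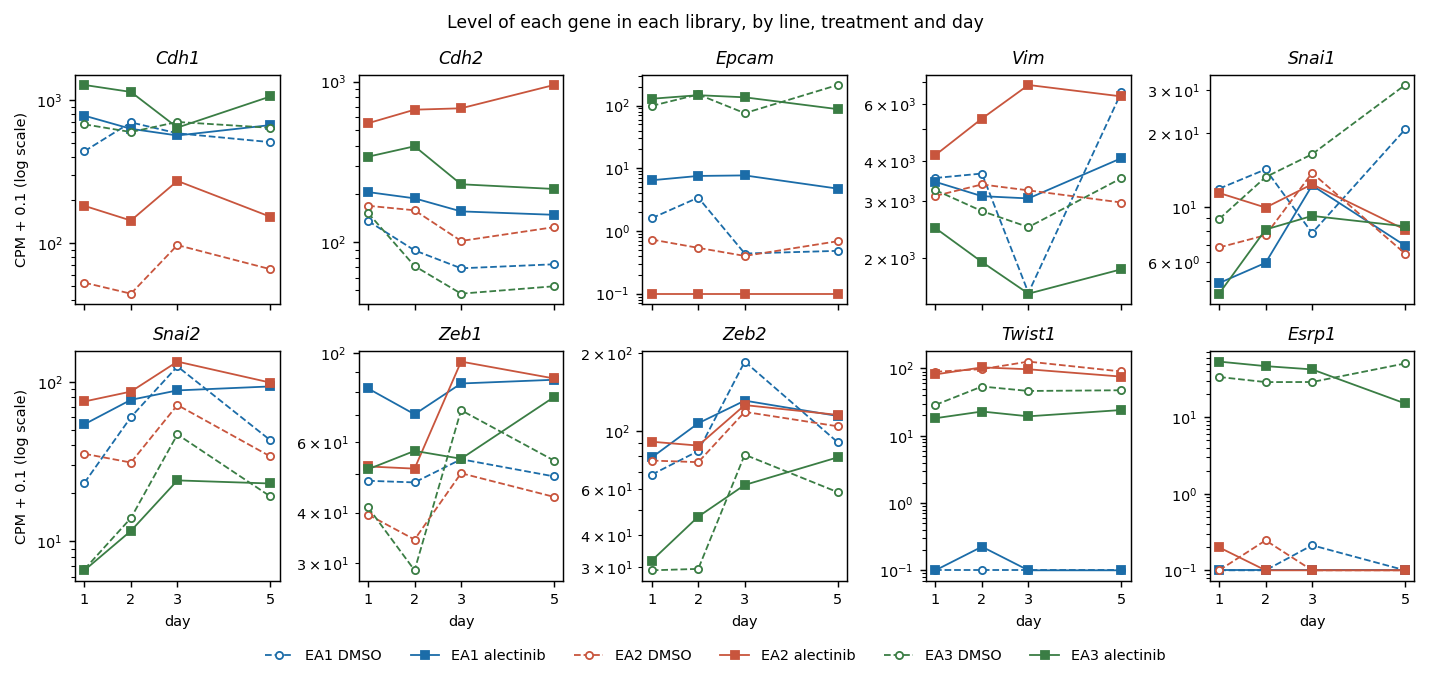
CPM plus 0.1 on a log axis against day (1, 2, 3 and 5) for each of the 10 genes, with a colour per line, open circles and dashed lines for DMSO and filled squares and solid lines for alectinib. The solid line lies above the dashed one on every day for Cdh2 in all 3 lines and for Cdh1 in EA2, and below it on every day for Twist1 in EA3.

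Epcam, the surface glycoprotein EpCAM that marks simple epithelia (chromosome 17, 87635979 to 87651129), had a DMSO mean of 135 ± 61.1 CPM in EA3 against 1.38 ± 1.39 in EA1 and 0.489 ± 0.151 in EA2. EA1 gave 14, 29, 3 and 3 counts in DMSO and 66, 60, 75 and 56 counts in alectinib. EA2 gave 7, 3, 3 and 7 counts in DMSO and none in the 4 alectinib libraries. In EA3 the levels were 99.0, 151, 75.7 and 213 CPM in DMSO and 129, 147, 136 and 87.7 CPM in alectinib. The groups did not overlap in EA1 and EA2, where they moved in opposite directions, and overlapped in EA3. Epcam rose 5.31-fold in EA1 (log2 fold change 2.41 ± 0.51, adjusted p = 0.00517; 3.06 without day 2 and 1.95 without day 3), which left it 19.2-fold under EA3 in alectinib. In EA2 it was at least 5.66-fold lower in alectinib, counting 3 counts over the group as the floor, with an adjusted p of 0.0520 that fell to 0.0171 without the block, to 0.000934 with DESeq2 and to 2.08e-05 without the filter on low counts. The EA3 log2 fold change was -0.01 with an interval of -0.86 to 0.83.

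Vim encodes vimentin, the intermediate filament of mesenchymal cells (chromosome 2, 13573927 to 13582826), and was abundant in every library, EA3 included. EA1 had 3540, 3653, 1565 and 6509 CPM in DMSO and 3443, 3111, 3061 and 4075 CPM in alectinib. EA2 had 3117, 3381, 3241 and 2973 CPM, then 4167, 5399, 6855 and 6320 CPM. In EA3 the DMSO libraries read 3247, 2797, 2496 and 3536 CPM and the alectinib libraries 2479, 1949, 1556 and 1850 CPM. Alectinib libraries were all higher in EA2 and all lower in EA3, and in EA1 they lay within the DMSO range, whose ends were days 3 and 5. Vim rose 1.76-fold in EA2 (log2 fold change 0.82 ± 0.22, adjusted p = 0.0151) and fell in EA3 by 0.63 ± 0.22 log2 units (0.0404). In EA1 the log2 fold change was -0.0005 with an interval of -0.49 to 0.49. The EA2 rise was lost without day 2 (0.0629) or day 5 (0.0523) and with the day 7 libraries in the fit (0.0964). The EA3 fall was lost without day 1 (0.0958), day 2 (0.114) or day 5 (0.148), without the block (0.0863), with library size alone (0.112), with DESeq2 size factors (0.0516), with the filter of 10 counts in every library (0.0581), and with the day 7 libraries (0.494). The day 7 libraries, although labelled EA3, correlated more closely with EA2 than with EA3.

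The Snail factors Snai1 and Snai2 are zinc finger repressors of Cdh1, on chromosome 2 at 167538195 to 167542814 and on chromosome 16 at 14705852 to 14709385. Snai1 had in EA1 11.8, 14.2, 7.75 and 20.6 CPM in DMSO and 4.81, 5.84, 12.2 and 6.88 CPM in alectinib. EA2 ran at 6.76, 7.59, 13.7 and 6.37 CPM, then 11.3, 9.87, 12.3 and 8.01 CPM. EA3 ran at 8.85, 13.2, 16.3 and 31.3 CPM, then 4.35, 8.01, 9.12 and 8.26 CPM. On each day of EA3 alectinib was lower than DMSO, although the ranges met between the lowest DMSO and the highest alectinib library. Snai1 fell in EA3 by 1.13 ± 0.33 log2 units (adjusted p = 0.0178), a call lost without day 1 (0.0667), day 2 (0.0537) or day 5 (0.128) and with the day 7 libraries in the fit (0.133). Those day 7 libraries correlated more closely with EA2 than with EA3. In EA1 the log2 fold change was -0.89 ± 0.33 (0.0533), which passed without day 3 (-1.41, 0.00607), with DESeq2 (0.0370) and without the filter on low counts (0.0159). EA2 had 0.32 with an interval of -0.38 to 1.02.

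Snai2 read 23.2, 60.1, 125 and 42.9 CPM in EA1 DMSO and 54.1, 77.1, 88.4 and 93.6 CPM in alectinib. EA2 had 35.3, 31.1, 71.6 and 34.0 CPM in DMSO and 75.3, 86.9, 134 and 99.0 CPM in alectinib. EA3 had 6.57, 13.9, 46.7 and 19.0 CPM and 6.47, 11.5, 24.003 and 23.0 CPM. Only in EA2 did the 4 alectinib libraries clear the DMSO range. Snai2 rose there 2.38-fold (log2 fold change 1.25 ± 0.26, adjusted p = 0.00318), which did not pass without the block (1.20, 0.101). The EA1 value was 0.55 ± 0.26 (0.118) and passed without day 3 (0.88, 0.0121), and that of EA3 was -0.26 with an interval of -0.84 to 0.32.

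The Zeb factors carry a pair of zinc finger clusters and a homeodomain and repress Cdh1 through E-boxes. Zeb1, on chromosome 18, had 47.9, 47.5, 54.3 and 49.2 CPM in EA1 DMSO and 81.6, 70.3, 83.9 and 85.7 CPM in alectinib. EA2 had 39.5, 34.2, 50.1 and 43.7 CPM and then 52.1, 51.4, 95.2 and 86.4 CPM. EA3 had 41.1, 28.6, 72.0 and 53.9 CPM and then 51.2, 56.9, 54.4 and 77.6 CPM. Groups were apart in EA1 and EA2 and overlapped in EA3. Zeb1 rose 1.61-fold in EA1 (log2 fold change 0.69 ± 0.18, adjusted p = 0.0111) and 1.66-fold in EA2 (0.73 ± 0.18, 0.0110), each lost without day 5 (0.0567 and 0.0795). In EA3 the value was 0.36 ± 0.19 (0.161), which passed without day 3 (0.62, 0.0261) and with library size alone (0.50, 0.0460).

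Zeb2 (chromosome 2, 44983632 to 45117395) did not pass in any line. Its DMSO libraries ran from 68.0 to 185 CPM in EA1, 75.9 to 119 in EA2 and 29.1 to 81.1 in EA3. In alectinib they ran from 79.2 to 131, 87.9 to 126 and 31.7 to 79.3 CPM. The ranges overlapped in each line, and the log2 fold changes were 0.10 (95% interval -0.27 to 0.48), 0.17 (-0.20 to 0.55) and 0.21 (-0.17 to 0.59) in EA1, EA2 and EA3.

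Twist1 is a basic helix-loop-helix factor that can repress Cdh1 and induce Cdh2 (chromosome 12, 33957671 to 33959829). EA1 had 0 counts in its 4 DMSO libraries and 1 count in the alectinib libraries, on day 2. EA2 had 89.3, 97.7, 126 and 90.2 CPM in DMSO and 81.6, 104, 97.2 and 75.6 CPM in alectinib. EA3 had 28.6, 53.9, 46.2 and 47.4 CPM in DMSO and 18.1, 22.8, 19.4 and 24.02 CPM in alectinib. The line order EA2, EA3, EA1 showed no overlap in DMSO, with EA2 at least 1165-fold and EA3 at least 493-fold above EA1 by the floor of 3 counts over the EA1 group. Twist1 fell in EA3 by 1.03 ± 0.15 log2 units (adjusted p = 0.000614), a call kept in all 11 alternatives, whereas the EA2 log2 fold change was -0.17 with an interval of -0.50 to 0.15. In EA1 both groups lay under the floor, so no fold is given.

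Esrp1 encodes an epithelial splicing regulator (chromosome 4, 11331933 to 11386783, minus strand) and was an EA3 gene in these libraries. EA1 had 1 count in all, EA2 had 1 count in each treatment, and EA3 had 33.4, 28.6, 28.7 and 50.2 CPM in DMSO and 53.1, 46.3, 42.0 and 15.0 CPM in alectinib. In DMSO the ratio of EA3 to EA2 was 1363 on a single EA2 count, with an exact 95% counting interval of 244 to 53878. With alectinib its EA3 log2 fold change was 0.09 with an interval of -0.91 to 1.10, and the day 5 alectinib library was the lowest of the 8. Of the exon bases of Esrp1, 2.01% lie in a gene on the other strand, as do 1.93% of Zeb1 and 3.27% of Zeb2, and the strand setting of the counter is not given in the sources used here.

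In sum over the 10 members, 3 rose in EA1 and none fell (Cdh2, Epcam, Zeb1), where 33.8% of 14264 genes changed, 18.0% upward and 15.8% downward. In EA2 5 rose and none fell (Cdh1, Cdh2, Vim, Snai2, Zeb1), beside 24.3% of genes, 13.0% upward and 11.3% downward. In EA3 2 rose (Cdh1, Cdh2) and 3 fell (Vim, Snai1, Twist1), beside 32.3%, 16.5% and 15.8%. The groups of 4 did not overlap for 3 members of EA1, 6 of EA2 and 3 of EA3, beside 31.1%, 26.9% and 23.5% of all genes. The share of members called lay near that of all genes in EA1 and above it in EA2 and, with all 4 days, in EA3. Since the members were chosen with earlier results of these data known, a share above that of all genes is open to that choice. With library size alone as the scale, the median of all genes moved by 0.13 in EA1 and 0.15 in EA3 on the log2 scale, and 64.6% and 64.8% of the calls there were upward in place of 53.2% and 51.0%. Without day 5 the number of members called fell to 3 in EA2 and 2 in EA3, and EA3 had also 2 without day 1 or day 2, while EA1 had 5 without day 3. Over all genes the calls were then 2648 in EA2 without day 5, 3754, 2836 and 3170 in EA3 without days 1, 2 and 5, and 2796 in EA1 without day 3.

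**Figure D3:**
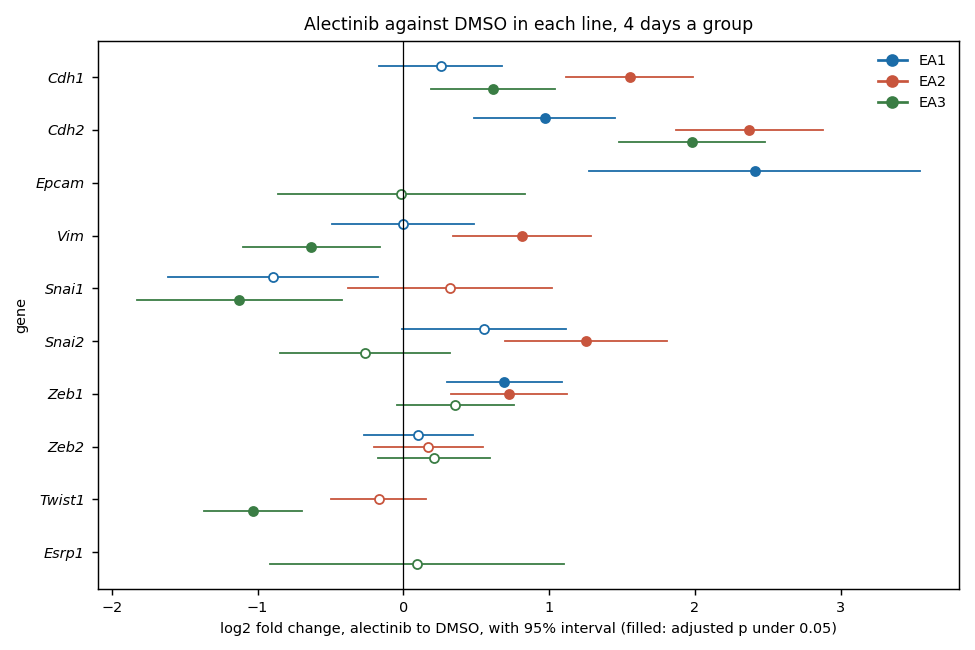
Log2 fold change of alectinib against DMSO for each gene and line, with the 95% interval from edgeR's quasi-likelihood fit, filled where the adjusted p was under 0.05. Groups with 3 counts or fewer have no point (Epcam in EA2, Twist1 in EA1, Esrp1 in EA1 and EA2). Cdh2 is filled to the right of 0 in all 3 lines, and Vim is filled on opposite sides in EA2 and EA3.

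The alectinib effect itself differed between the lines for 5 of the 10 members, which were chosen with earlier results of these data known, where 7.05% of all genes differed. These were Cdh1 (adjusted p = 0.0285), Epcam (0.0291), Vim (0.0316), Cdh2 (0.0348) and Twist1 (0.0430), while Snai2 (0.0572), Snai1 (0.111), Zeb1 (0.524), Esrp1 (0.801) and Zeb2 (0.949) did not pass. For Twist1, which EA1 held at the floor, no pair of lines passed (0.428, 0.476 and 0.0547). Between pairs of lines, the log2 fold changes of Cdh1 and Cdh2 were higher in EA2 than in EA1, by 1.30 ± 0.28 (0.0166) and 1.40 ± 0.32 (0.0202), although Cdh1 did not pass in EA1, and Epcam differed there too (0.0260), so that 3 members passed beside 6.48% of all genes. EA3 against EA2 had 2 members, beside 3.07% of all genes, with Vim lower by 1.45 ± 0.31 (0.0258) and Snai2 by 1.51 ± 0.37 (0.0460). No member passed for EA3 against EA1, beside 1.91% of all genes, although 3 had an unadjusted p under 0.05, as did 2157 of 14264 genes. With a day left out, 1 of the 10 passed without day 1 (Cdh2), 1 without day 2 (Epcam), and none without day 3 or without day 5. Over all genes 792, 665, 211 and 318 passed without days 1, 2, 3 and 5, against 1005 with all days, and the Cdh1 difference of EA2 from EA1 was 1.37, 1.14, 1.22 and 1.45. Without the block the count was 1, Epcam, with adjusted p of 0.0525 for Cdh1, 0.0515 for Vim, 0.102 for Cdh2 and 0.101 for Twist1, and with library size alone Epcam was again the 1 that passed. The calls over all genes without the block and with library size alone are not given here, so the loss of members cannot be set beside them.

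The change of the alectinib effect with time (the difference of slopes on log2 days) passed for no member in any line, beside 0.0%, 0.0% and 0.0631% of all genes in EA1, EA2 and EA3. At an unadjusted p under 0.05 stood 0, 1 and 1 members, beside 1149, 551 and 1422 of 14264 genes, and no member passed by DESeq2. Slopes in DMSO passed for 3.79%, 0.0% and 11.3% of all genes in EA1, EA2 and EA3, and slopes in alectinib for 0.0%, 0.0631% and 0.477%. The only member among them was Cdh2 in EA3 DMSO, which fell by 0.69 ± 0.14 log2 units for each doubling of the days (adjusted p = 0.00805).

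**Figure D4:**
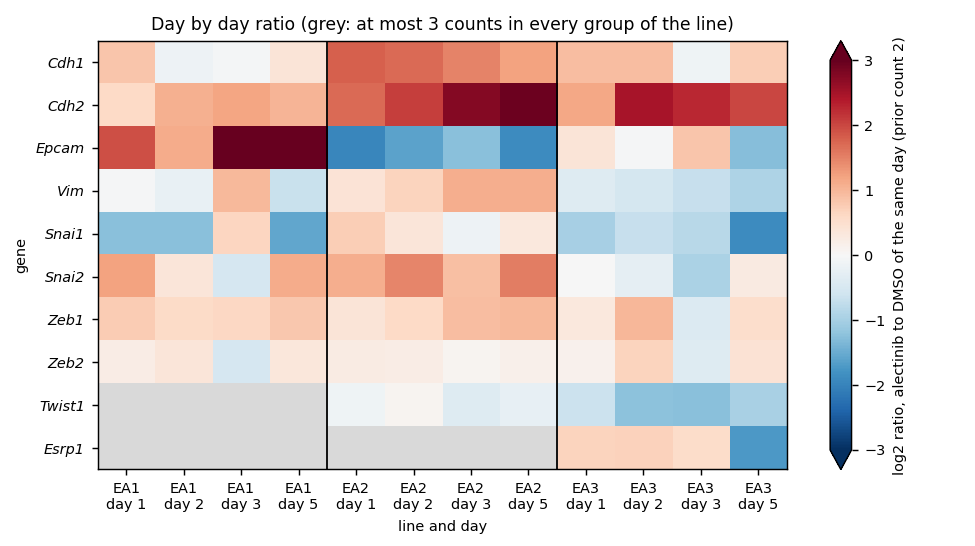
Log2 ratio of alectinib to the DMSO library of the same line and day for each gene, computed with a prior count of 2, on a colour scale from -3 to 3, with grey where every group of the line had at most 3 counts. Cdh2 is above 0 in all 12 cells (0.60 to 2.94), Epcam is above 0 on each day in EA1 and below 0 on each day in EA2.

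Day by day, the log2 ratios of Cdh2 were 0.60, 1.08, 1.18 and 1.02 for EA1, then 1.71, 2.08, 2.74 and 2.94 for EA2, and for EA3 1.16, 2.48, 2.26 and 2.01. Cdh1 in EA2 gave 1.79, 1.70, 1.49 and 1.22, all above 0. Vim in EA3 gave -0.39, -0.52, -0.68 and -0.93, all below 0. Esrp1 in EA3 was above 0 on days 1, 2 and 3 (0.67, 0.69 and 0.55) and at -1.73 on day 5.

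Genes outside the 10 were taken from lists of related genes, also chosen with earlier results of these data known. The counts of each list stand beside the 18.0%, 13.0% and 16.5% of all genes that rose and the 15.8%, 11.3% and 15.8% that fell in EA1, EA2 and EA3. Of 31 structural and surface genes of mesenchymal cells, 27 were tested, and 15 rose and 1 fell in EA1, 12 and 2 in EA2, 17 and 2 in EA3. Their median log2 fold change was 1.81, 0.82 and 1.23, against 0.03, 0.00 and 0.04 over all genes. Smooth muscle actin Acta2 rose in EA1 (3.44 ± 2.12 to 543 ± 105 CPM) and in EA2 (1.48 ± 0.943 to 456 ± 570 CPM), where the days differed widely. In EA3 it had 1 count in DMSO and 516 in alectinib. Calponin Cnn1, the matrix protein Sparc, the adhesion molecule Ncam1 and the collagens Col1a1, Col1a2, Col3a1 and Col5a1 also rose in all 3 lines, some of them from the floor. Col1a2 went from 0 to 20 counts in EA1, and in EA3 Col3a1 had 1 count in DMSO and 0.186 to 23.9 CPM in alectinib, and Cnn1 had 1 and 124 counts. Sparc, for example, went from 292 to 1309 CPM in EA1, from 552 to 1562 in EA2 and from 258 to 918 in EA3. Cd44, the hyaluronan receptor, fell in all 3 lines, by 0.45, 0.44 and 0.46 on the log2 scale. Itga5, an integrin subunit, rose in EA1 and EA2 (1.53 and 0.58) but not in EA3 (-0.37, adjusted p = 0.132), a difference between lines with an adjusted p of 0.00204, and Col5a1 rose most in EA1 (3.15 against 1.41 and 1.23, 0.00729).

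Of 33 desmosome, tight junction and apical genes, all tested, 8 rose and 3 fell in EA1, 6 and 6 in EA2, 8 and 1 in EA3, with medians of 0.07, 0.00 and 0.40. The EA1 and EA2 shares lay near the 18.0% and 15.8%, and 13.0% and 11.3%, of all genes that rose and fell. Desmoplakin (Dsp) and the polarity gene Patj rose in all 3 lines, Dsp by 1.17, 1.60 and 1.14 on the log2 scale, and the keratin Krt18 fell in all 3, by 1.55, 1.79 and 1.16. Envoplakin (Evpl) rose in EA1 and EA3 (1.12 and 1.04) and fell in EA2 by 1.57 (adjusted p of the difference 0.0130). Plakophilin Pkp1 fell in EA1 by 1.35 and rose in EA2 (2.35), and was at 0.20 in EA3 (0.0106). Of 13 cadherin partners 10 were tested, and 5, 3 and 6 rose and none fell in EA1, EA2 and EA3, with medians of 0.40, 0.03 and 0.53. P120 catenin (Ctnnd1) and vinculin (Vcl) rose in all 3 lines, and beta-catenin (Ctnnb1) rose in EA1 (0.57) and EA3 (0.45) but was at -0.33 in EA2 (0.0149). Nectin3 was at 0 in EA2, rose in EA3 (2.02) and stood at -0.22 in EA1 (adjusted p = 0.676), and the difference between lines did not pass (0.0547). Among 21 other cadherin genes, 10 were tested, with 1, 3 and 2 rising and 2, 1 and 2 falling, mostly near those shares of all genes, and medians of 0.36, 0.06 and -0.53. Cdh17, liver-intestine cadherin, fell in EA1 (607 to 99.2 CPM) and EA3 (109 to 11.6 CPM) but rose in EA2 (17.5 to 35.8 CPM). Cdh3, P-cadherin, rose in all 3 lines, in EA1 from 3 to 26 counts, and Cdh6 fell in EA2 by 2.11 with values of 0.84 and 0.94 in EA1 and EA3 (0.0134).

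Regulators split by gene. Over all tested genes 18.0%, 13.0% and 16.5% rose in EA1, EA2 and EA3, and 15.8%, 11.3% and 15.8% fell. Of 17 other transcription factors linked to the mesenchymal state, 14 were tested, with 3, 1 and 2 rising and 3, 4 and 5 falling in EA1, EA2 and EA3, and medians of -0.34, -0.29 and -0.26. Hmga2, a chromatin protein that induces Snai1 and Twist1 in other cells, fell in EA1 (909 to 129 CPM), EA2 (622 to 78.0) and EA3 (651 to 83.6), and Sox9 and Foxc2 fell in all 3 lines as well, Foxc2 in EA2 on 10 counts that stood in 1 DMSO library. Prrx1, a homeobox factor, was under the floor in EA1, rose in EA2 (57.6 to 104 CPM) and fell in EA3 (58.6 to 23.5 CPM; adjusted p of the difference 0.00125). Klf8 rose in EA3 (3.49) with -0.55 and 0.28 in the other lines (0.0216). Of 16 regulators of the epithelial state, 11 were tested, with 5, 2 and 3 rising and 1, 2 and 3 falling and medians of 0.81, -0.45 and -0.09. Klf5 fell in all 3 lines, by 1.00, 0.98 and 1.31. Ehf, an Ets factor of epithelia, had 0 counts in EA1 DMSO and 347 in alectinib, at least 99.8-fold more, rose in EA3 (0.86), and stood at 6 and 3 counts in EA2 (0.00173). Foxa2 fell in EA3 by 1.66 with 0.54 and -0.45 in EA1 and EA2 (0.00484).

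**Figure D5:**
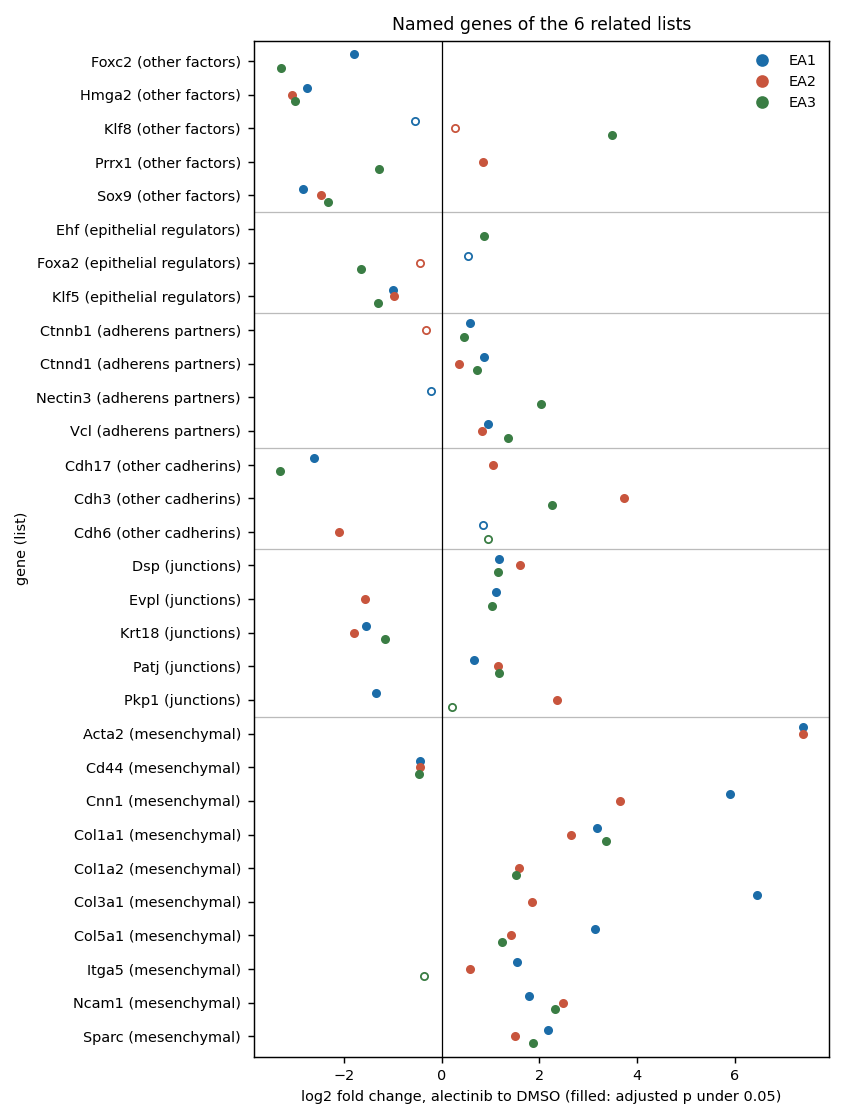
Log2 fold change of alectinib against DMSO in EA1, EA2 and EA3 for the genes named from the 6 related lists, filled where the adjusted p was under 0.05 and left out where a group had 3 counts or fewer. Hmga2, Sox9, Krt18 and Klf5 lie left of 0 and Acta2, Sparc, Ncam1 and Col5a1 right of 0 in every line plotted, while Cdh17 lies right of 0 in EA2 only.

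Summed fibroblast markers were higher with alectinib in EA1, EA2 and EA3, whereas Vim rose in EA2 only and fell in EA3. Over the 10 looked at, the summed level was 9.55 to 45.3 CPM in EA1 DMSO and 125 to 474 CPM in alectinib, 57.1 to 71.3 and 119 to 241 in EA2, and 10.3 to 20.5 and 85.0 to 284 in EA3. Of these, 6 were tested, and 5, 3 and 5 rose in EA1, EA2 and EA3, the list sharing Col1a1, Col1a2 and Col3a1 with the mesenchymal list. Thy1 and Fap had group means of at most 0.0921 and 0.0318 CPM. The part of fibroblasts in the Cdh2, Vim and mesenchymal results was not tested, and in such bulk libraries more cells of a type and more RNA per cell cannot be told apart. Of 8 endothelial markers Cldn5 was at 0 in every group, the summed level did not exceed 10.0 CPM, and of 3 tested 1 fell, in EA2. Of 8 leukocyte markers Ptprc had group means of at most 0.198 CPM, and the summed level of up to 95.2 CPM was led by Cd68, whose libraries ran from 1.39 to 92.7 CPM and whose group means ran from 3.86 to 39.9, and neither of the 2 tested markers passed in any line. The summed level of the 12 lung epithelial markers, most of it Krt8 and Krt18, went from 3658 to 6630 CPM in DMSO to 1875 to 3524 in alectinib in EA1. For EA2 it was 1560 to 2220 and then 304 to 695 CPM, and for EA3 2645 to 4104 and then 1305 to 3353, so that EA1 and EA2 did not overlap. Of the 4 tested, 1, 2 and 1 fell in EA1, EA2 and EA3 and 2 rose in EA3, and their part in the results was not tested.

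Over the 24 libraries, the genes nearest to Cdh1 by the root mean square distance of centred log2 CPM included Jup (plakoglobin, 0.462) and Sema3f (0.487), where the median tested gene lay at 1.55. Jup fell as Cdh1 did from 393 CPM in EA1 and 331 in EA3 to 49.9 in EA2 in DMSO. Nearest to Epcam were Grb7 (0.903), Atp9a (0.997) and Slc39a4 (1.05), against a median of 3.66, and Grb7 had 42.4 CPM in EA3 DMSO, 0.946 in EA1 and 0.0450 in EA2. Nearest to Vim were Fbxo7 (0.330), Fam76b (0.390) and Acd (0.398), against 0.830. The points share their libraries, and the distances are given as a description.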

How the data were processed

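The authors prepared stranded mRNA libraries, sequenced them in pairs, checked the reads with FastQC and trimmed adapters with bbduk. Alignment was to mm10 by STAR, whose own counter gave the deposited values, a raw count for each gene with no normalization. The annotation release and strand column are not given in the sources used here. Of 55415 rows, 24 named a date in place of a gene (0.129% to 0.201% of counts) and were left out.

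Counts were scaled by TMM and fitted with edgeR 4.0.16 (quasi-likelihood, robust) in R 4.3.3 after filterByExpr, with Benjamini-Hochberg adjustment over all tested genes and a threshold of 0.05. Alectinib was fitted per line with line and day as a block, since labels give both treatments the same days. Deviations of the paired libraries correlated from -0.300 to 0.549. Levels between lines had no block. Limits of intervals are 95%. Members and lists were chosen with earlier results of these data known, and related genes were named where they passed in all 3 lines or were the 2 of their list that differed most between lines. Lengths and positions are GENCODE vM21 (GRCm38). Counts were simulated with a fixed spread common to all genes, no line or day effects and 200 genes changed, so recovery in the real data can differ. For alectinib 96 to 97 of 100 genes changed 4-fold and 55 to 63 of 100 changed 2-fold were recovered, with 5 to 12 false calls. For the change with time in EA1, 95 of 100 changed 4-fold and 38 of 100 changed 2-fold per doubling of the days were recovered. DESeq2 1.42.0, other scalings, other filters, each day left out, no block, each line alone, all 26 libraries and linear days were alternatives. A gene that the naming rule also chose and a further item of the lines' origin are not reported here.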

Additional observations from a re-analysis of the deposited data

Results flagged for a closer look

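In EA2 DMSO the day 3 library stood apart from the other 3 for both Snail factors, at 13.7 CPM for Snai1 and 71.6 CPM for Snai2. A sample counted as far from its group when its gap to the nearest other was over Dixon's 95% limit for 4 samples. Of 53 groups of 4 libraries tested this way, 2 were marked, and chance marks about 1 in 20.

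The effect of alectinib differed between the 3 lines for 5 members, by edgeR's test of the difference itself, where 7.05% of all genes differed. The members were chosen with earlier results of these data known. The count was 0 or 1 with any day left out, without the block, with library size alone or with all 26 libraries. Over all genes the calls also fell with any day left out and with all 26 libraries. Those without the block and with library size alone are not given here. The adjusted p was 0.0285 for Cdh1, 0.0348 for Cdh2, 0.0291 for Epcam, 0.0316 for Vim and 0.0430 for Twist1. Cdh2 rose on 4 of 4 days in each line, so that its difference is one of size, whereas Vim was higher on 4 of 4 days in EA2 and lower on 4 of 4 in EA3.

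The 2 libraries labelled EA3 day 7, which entered only the alternative with all 26 libraries, are set beside the others here by value. The log2 ratio of the alectinib to the DMSO library was 2.76 for Cdh2 (9260 against 916 counts) and 1.31 for Vim (60741 against 16471 counts). Cdh1 (1.13), Snai1 (0.89) and Snai2 (0.61) were also higher, Zeb2 (-0.78) and Twist1 (-0.51) were lower with alectinib, Zeb1 was at 0.05 and Epcam went from 7 to 0 counts. The other EA3 libraries had Vim lower with alectinib on each day, and EA2 had it higher. With 1 library a group there was no test.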

How the results depend on the processing

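Of 618 alternatives over single genes, 524 kept direction and side of the threshold, 56 fell short of it, 20 newly passed and 18 turned sign. Leaving out each day moved the members called to 2 to 5 in EA1, 3 to 5 in EA2 and 2 to 6 in EA3, and the genes called to 2796 to 4088, 2142 to 2654 and 2836 to 3889. In EA3 3 members were called with all 26 libraries and 3 with at least 10 counts in every library, a filter that drops Epcam, Twist1 and Esrp1 from the test and under which Vim also fell short. The genes called in these EA3 fits are not given here. The libraries added to make 26, although labelled EA3, correlated more closely with EA2 than with EA3. For the effect between lines, the members were 0 with all 26 libraries, 3 with the 10-count filter, 1 with library size alone, 1 without the day block and 0 to 1 with a day left out, and the genes were 398 with all 26 libraries, 1963 by DESeq2, 2698 without a filter and 211 to 792 with a day left out. DMSO levels gave 1 member and 3174 genes with the 10-count filter, 7 members with the day as a replicate block, and 3292 to 4318 genes with a day left out, and alectinib levels gave 5 members with the 10-count filter. The change with time gave 50, 16 and 160 genes by DESeq2 in EA1, EA2 and EA3, 244, 112 and 269 without a filter, 1 and 16 in EA2 and EA3 on linear days, and 0 to 52, 0 to 25 and 0 to 192 with a day left out. The cadherin list had 5 calls in EA1 without a filter. Signs that turned were all of values that did not pass: Vim in EA1 (0.0225 with DESeq2 size factors and with DESeq2, 0.123 with library size alone, 0.0677 with the 10-count filter, and -0.33 to 0.24 with a day left out, above 0 without day 1, 2 or 5), Epcam in EA3 (0.00838, 0.129 and 0.00922 with DESeq2 size factors, library size alone and DESeq2, 0.0101 with the line alone, -0.30 to 0.42 with a day left out, above 0 without day 5), Zeb2 (-0.0135 to 0.28 in EA1 with a day left out, below 0 without day 2, -0.00236 in EA3 with all 26 libraries), Snai2 in EA3 (-0.42 to 0.00689 with a day left out, above 0 without day 3) and Esrp1 in EA3 (-0.146 to 0.67 with a day left out, below 0 without day 1, 2 or 3). The cause was not tested. Without the day block the paired calls of Vim in EA3 (0.0863) and Snai2 in EA2 (0.101) were lost and that of Epcam in EA2 was gained (0.0171), and no other alectinib call of a member within a line changed. Counts limit Epcam in EA1 and EA2, Twist1 in EA1 and Esrp1 in EA1 and EA2.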

Other observations

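In DMSO the day 3 library had the highest level of Snai2, Zeb1 and Zeb2 in 3 of 3 lines. It had the lowest level of Cdh2 and Epcam in 3 of 3, with Epcam at 3 counts there in EA1 and EA2. Snai1 was highest on day 5 in 2 of 3 lines and Cdh1 was highest on day 3 in 2 of 3. Zeb1 was lowest on day 2 in DMSO, and Snai2 lowest on day 1 in alectinib, in 3 of 3 lines. In alectinib day 3 was the highest for Snai1 in 3 of 3 lines and for Snai2 and Zeb2 in 2 of 3, while Zeb1 was highest on day 5 in 2 of 3. Across the lines, day 1 held the highest Cdh2 of the 4 DMSO libraries in 3 of 3. These counts were made after the values were seen, with no such share over all genes beside them, and 1 library a day allows no test of a day.

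The cadherin ratio of EA2 lay below those of EA1 and EA3 in every library, and no test was run on it. In the EA2 DMSO library of day 3 Cdh1 exceeded Cdh2 per kb by 1.68-fold, and in the other 7 EA2 libraries the ratio was between 0.282 and 0.932, whereas no EA1 or EA3 library fell below 4.95.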
